A study of Mus musculus with 2 samples.

Results

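The Hox clusters are 4 runs of homeobox genes on 4 mouse chromosomes. The 39 protein-coding genes whose symbols begin with Hoxa, Hoxb, Hoxc or Hoxd were taken, of 21755 protein-coding genes on chromosomes 1 to 19 and X. Open chromatin was read from the peaks of DNase-seq, in which nuclei are treated with the nuclease DNase I and the cut positions are sequenced, across each cluster and 100 kb on each side. The donors were 2 male B6CASTF1/J mice, both 36 days old, whose left cerebral cortex gave 1 library each, called mouse 1 and mouse 2 here after the replicate numbers of the labels. B6CASTF1/J is a first-generation hybrid of C57BL/6J and CAST/EiJ, so each height sums both parental alleles. The 2 samples form 1 group, untreated as far as the labels say. The donor label is the same for both, though the descriptions number them as different males. With 1 group there is no comparison of conditions and no test, and the values below are descriptions with their spread over 2 libraries, which may be technical in part.

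Hox proteins are transcription factors that give cells along the head-to-tail axis their regional identity. Within a cluster the genes are transcribed in the same direction, and genes of low paralog number are used further forward in the embryo and earlier than genes of high paralog number. In the nervous system Hox genes act in the hindbrain and spinal cord, while the forebrain, which gives rise to the cerebral cortex, forms without them. Where they are silent, the clusters are classic targets of the Polycomb complexes, which mark and compact chromatin. CTCF, a zinc finger protein that binds DNA and helps to partition chromosomes into domains, has binding sites inside the clusters.

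HoxA held 11 genes (chromosome 6, bases 52155590 to 52260880 of mm10, minus strand), HoxB 10 (chromosome 11, 96194316 to 96368256, plus strand), HoxC 9 (chromosome 15, 102921103 to 103036852, plus strand) and HoxD 9 (chromosome 2, 74668310 to 74765142, plus strand). The authors deposited a pair of peak lists per library, and the shorter one, in which every peak held bases at a false discovery rate (FDR) of 0.001 or less, is used below as the strict list. It held 48 peaks in the Hox windows of 72021 in the genome in mouse 1, and 29 of 59150 in mouse 2. A peak's height is the authors' own signal value. Heights were whole multiples of a step in each library, and on that reading 1 height unit is 1 cut per M cuts, with 160.1 M cuts in mouse 1 and 145.4 M in mouse 2. The median peak of the whole strict list was 1.18 high in mouse 1 and 0.963 in mouse 2. Checked against markers of the labelled tissue, all 5 cortical neuron markers (Syt1, Camk2a, Snap25, Rbfox3, Slc17a7) had a promoter peak in both mice, as did 57.7% of all coding genes. Of 4 markers each, 3 of astrocytes, 2 of oligodendrocytes, 1 of microglia, 1 of endothelium and 0 of inhibitory neurons had a strict one in both. A missing strict peak thus does not show that a gene is unused in this tissue.

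Inside the clusters only 5 sites had a strict peak in both mice, and 4 of them lay at the same place in each cluster, after the group 9 gene. In HoxA the site lay 1187 bp past the end of Hoxa9 and 3088 bp before the curated RefSeq start of Hoxa7, the next gene. In HoxB it lay 2246 bp past Hoxb9 and 2845 bp before the start of Hoxb8, in HoxC 2402 bp past Hoxc9 and 2839 bp before Hoxc8, and in HoxD 2073 bp past Hoxd9 and 2148 bp before Hoxd8. The fifth site lay further along HoxD, over the start of Hoxd3os1, an antisense transcript, and in introns of Hoxd3 and Hoxd4 transcripts. All 5 places held letters like the binding motif of CTCF, and these are printed because they are what the 5 sites share. Each line gives the strand of Hox transcription from the GRCm38.p6 RefSeq genome (the C57BL/6J allele), with the best match to a CTCF score matrix in capitals. For HoxA the match alone is shown, because the bases around it are an untranslated region of 1 annotated Hoxa7 transcript.
HoxA, chr6:52221804-52221823, minus strand: ATTCCAGGAGATGGCAGTGT
HoxB, chr11:96278905-96279004, plus strand: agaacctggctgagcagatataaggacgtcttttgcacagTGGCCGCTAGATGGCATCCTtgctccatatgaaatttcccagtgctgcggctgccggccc
HoxC, chr15:102987550-102987649, plus strand: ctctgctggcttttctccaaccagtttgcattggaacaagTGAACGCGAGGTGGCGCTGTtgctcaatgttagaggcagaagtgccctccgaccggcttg
HoxD after Hoxd9, chr2:74702352-74702451, plus strand: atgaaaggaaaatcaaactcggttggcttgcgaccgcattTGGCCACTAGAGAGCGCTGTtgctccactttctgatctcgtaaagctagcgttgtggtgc
HoxD at Hoxd3os1, chr2:74715878-74715977, plus strand: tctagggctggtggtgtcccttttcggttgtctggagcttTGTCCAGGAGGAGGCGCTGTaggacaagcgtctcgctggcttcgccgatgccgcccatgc

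The matches of these 5 sites ran in 1 direction. In all 5 sites the best match read along the strand of Hox transcription. Not every match in the clusters did so: that of a site between Hoxb13 and Hoxb9, in mouse 1 alone, read against it. Any pair of the 5 matches shared 10 to 15 of their 20 bases, and 6 positions were the same in all 5. The sites of HoxB, HoxC and HoxD after the group 9 gene also shared a short stretch at the end of the match. The last base of the match and the 5 bases after it read ttgctc in all 3. The bases around the HoxA match were not part of this comparison. Of the 40 bases before the match only 1 was the same in HoxB, HoxC and HoxD, against 8 of the 40 after it. Of those 8, 5 belong to that stretch, and the number shared by unrelated sequences was not computed.

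The site after Hoxb9 was 2.50 high in mouse 1 and 1.05 in mouse 2 (1.78 ± 1.02, SD, n = 2), or 400 and 153 cuts. The site after Hoxc9 was 2.14 and 1.51 high (1.82 ± 0.440), and that after Hoxd9 was 1.62 and 0.881 (1.25 ± 0.526). The HoxA site was 2.33 and 0.970 high (1.65 ± 0.961). All 4 stood above the library median in mouse 1, and in mouse 2 the HoxD site after Hoxd9 was below it. The fifth site, at Hoxd3os1, was 1.57 high in mouse 1 and 0.654 in mouse 2 (1.11 ± 0.646). All 5 were higher in mouse 1, as was the median of the whole strict list (1.18 against 0.963). The 5 sites did not keep the same order in both mice: HoxB led in mouse 1 and HoxC in mouse 2.

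Footprints are short stretches inside a peak with fewer cuts than their surroundings, as a bound protein leaves them, and the authors called them per library. The 20 bases of the HoxB match and of the HoxC match lay wholly inside footprints in both mice. In the HoxD site after Hoxd9 footprints held 20 bases of the match in mouse 1 and 15 in mouse 2, and in HoxA 19 and 14. At Hoxd3os1 footprints held all 20 bases in mouse 1 and 0 in mouse 2, where the peak was the lowest of the set. At least 1 base of the match was under a footprint in 5 of 5 sites in mouse 1 and in 4 of 5 in mouse 2. Over the genome 84.3% of strict peaks held a footprint in mouse 1 and 89.6% in mouse 2. The share of matches under a footprint over all sites is not given here, so these counts are not set apart from it.

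**Figure D1:**
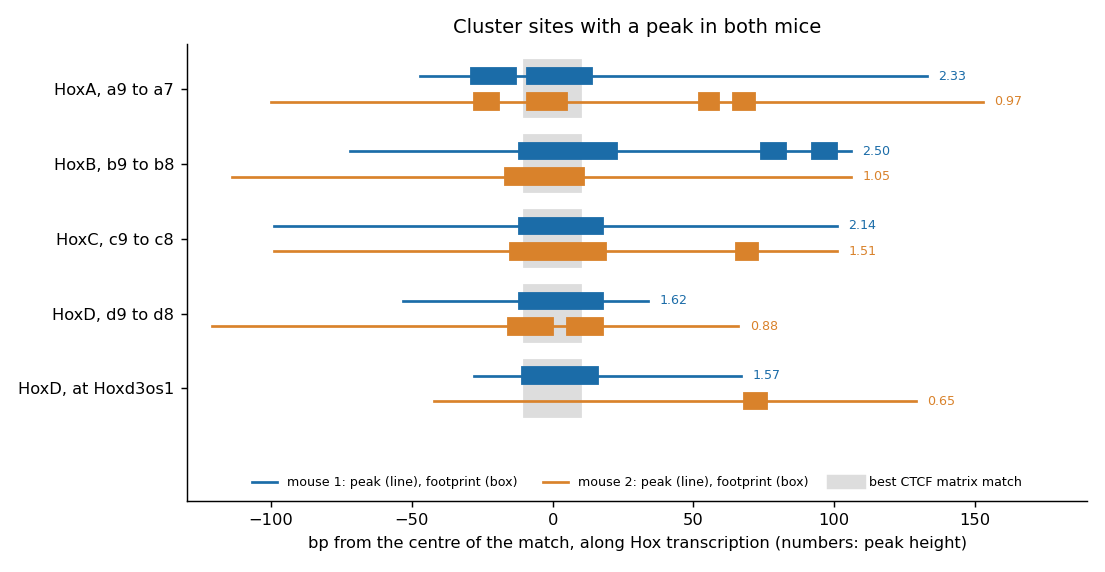
Peaks (lines), footprints (boxes) and the best CTCF matrix match (grey) of the 5 cluster sites with a strict peak in both mice, in bp from the centre of the match along Hox transcription, with the peak height (cuts per M) at the end of each line. A footprint lies over the match in both mice in every site but the one at Hoxd3os1, where mouse 2 has none there.

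The score matrix is 20 bases wide and was built, after the data were seen, from letter matches in sites outside the Hox windows. Its threshold, 15.5, was reached by 1% of same-length flanks lying beside the sites. HoxB scored 16.4, HoxA 16.1, HoxD 16.1 after Hoxd9 and 15.7 at Hoxd3os1, so 4 of the 5 passed. HoxC scored 13.5 and did not pass, although 98.6% of flanks scored lower. Across the genome 11.7% of 83641 sites passed, and 16.4% of the 43925 sites present in both mice. A fixed letter pattern of the motif's core, CC, 3 free bases, AGG, 1 free base and GGC on either strand, was found in only 1 of the 5, at Hoxd3os1, and in 7.45% of all sites. It was found in 3 of the 57 sites of the Hox windows (5.26%, 95% Wilson interval 1.81 to 14.4%) and in 1.05% of flanks. By kind of site, the matrix passed in 2 of 14 window sites at coding promoters and in 4 of 43 others, against 4.91% and 14.7% in the genome. A match describes the letters and does not show that CTCF was bound.

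Hox promoters were almost without strict peaks. A peak came within 1 kb of an annotated start site of 4 of the 39 Hox genes in mouse 1 (10.3%, Wilson interval 4.06 to 23.6%), where 63.5% of all coding genes had one. In mouse 2 it was 1 of 39 (2.56%, 0.454 to 13.2%), where 58.4% of all coding genes had one. The 1 Hox gene with a peak in both mice was Hoxa7, and 57.7% of all coding genes had one in both. The mean was 6.41 ± 5.44% (SD, n = 2) for Hox genes and 61.0 ± 3.62% for all coding genes. Such intervals cover counting error only. The 10 HoxB and the 9 HoxC genes had none in either mouse, HoxA had 2 in mouse 1 and 1 in mouse 2, and HoxD had 2 and 0. Along the axis, 1 and 0 of the 12 genes of groups 1 to 4 had a peak, 1 and 1 of the 11 genes of groups 5 to 8, and 2 and 0 of the 16 genes of groups 9 to 13, so no range of paralog groups stood out.

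**Figure D2:**
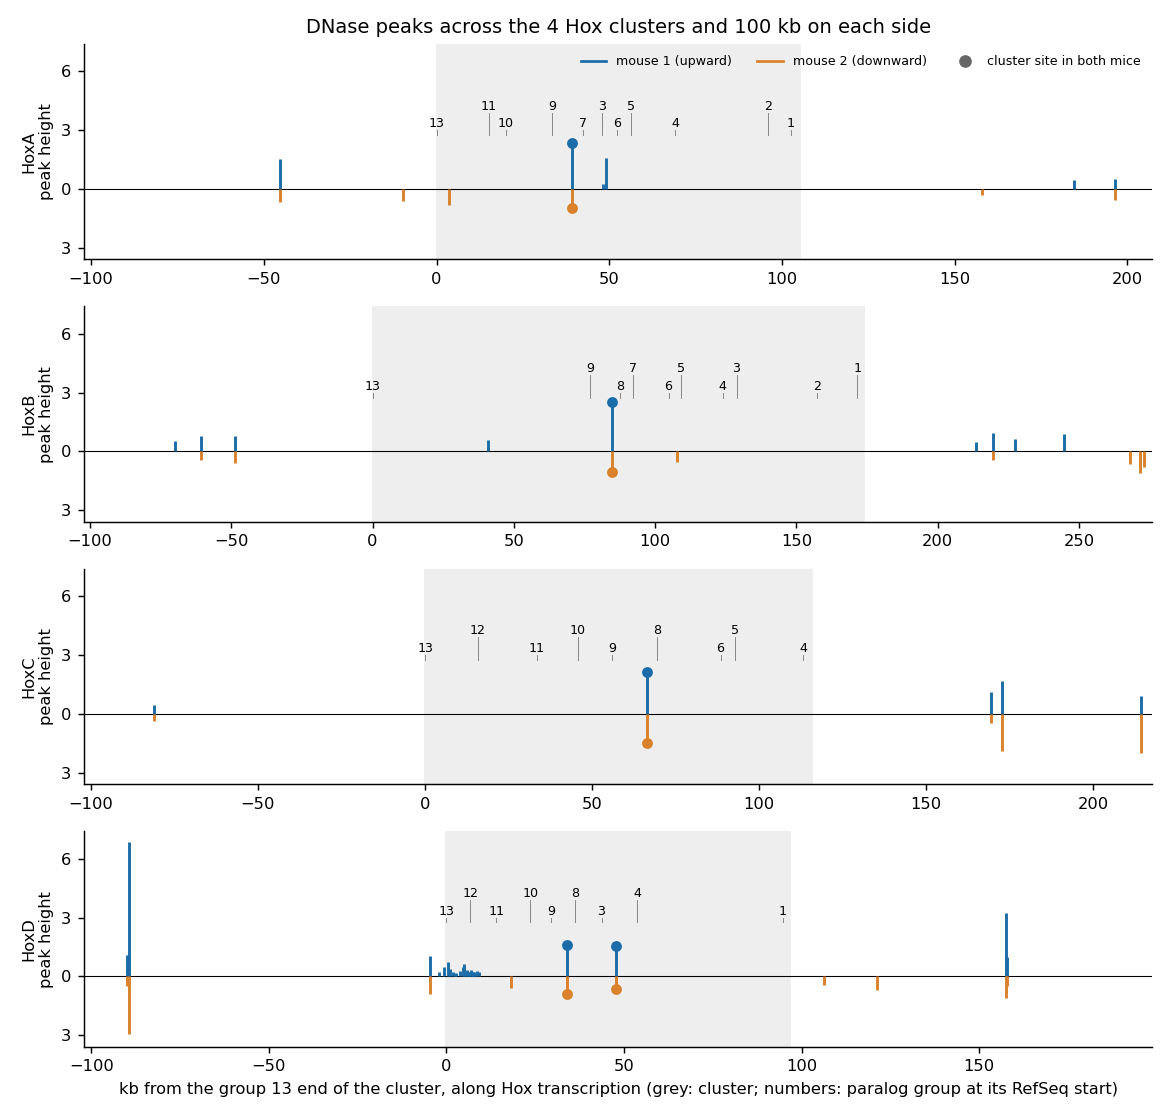
Strict peaks of mouse 1 (upward) and mouse 2 (downward) across the 4 clusters (grey) and 100 kb on each side, in kb from the group 13 end along Hox transcription, with height in cuts per M and the paralog number of each gene at its RefSeq start. The dots mark the 5 sites of both mice, which sit after group 9 in each cluster with a second one in HoxD; the run of low peaks near group 13 of HoxD is seen in mouse 1 alone.

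Many promoters without peaks were CpG-rich, but not all. Of the 35 Hox genes without a strict promoter peak in either mouse 21 were CpG-rich by the rule given next. Of the 39 Hox genes 24 had a CpG-rich promoter (GC content of at least 50% and an observed to expected CpG ratio of at least 0.6 over 500 bp on each side of the gene's annotated 5′ end), which is 61.5% of Hox genes against 44.8% of all coding genes. Of these 24, 3 had a strict peak in mouse 1 (12.5%) and 1 in mouse 2 (4.17%). Of all 9741 CpG-rich coding promoters 95.5% had one in mouse 1 and 89.3% in mouse 2. In all, 418 CpG-rich coding promoters had no strict peak in either mouse, and 21 of them (5.02%) were Hox promoters, which make up 0.246% of CpG-rich promoters.

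At the lower threshold few Hox promoters were added. In the longer list 8 of 39 Hox promoters had a peak in mouse 1 and 2 in mouse 2, where 67.8% and 64% of all coding genes did. It added Hoxc6 (0.862 in mouse 1), Hoxc5 (0.687), Hoxd1 (0.706 in mouse 1 and 0.392 in mouse 2) and Hoxd3 (0.512), and the other 3 had no peak within 1 kb in mouse 2. The Hoxc6 site itself was in both mice, since an overlapping peak of 0.385 in mouse 2 lay just beyond 1 kb. Of the 24 CpG-rich Hox promoters 5 and 2 had a peak in this list, where 97.5% and 93.4% of CpG-rich coding promoters did. For 31 Hox genes neither mouse had a peak in either list. The microRNA genes Mir10a, Mir10b, Mir196a-1, Mir196a-2, Mir196b and Mir615 and the predicted one Gm44463, all inside the clusters, had no peak within 1 kb of their starts in either mouse or list. A single base at FDR 0.05 or less within 1 kb of a start site was listed for 9 Hox genes in mouse 1 and for 2, Hoxa7 and Hoxd1, in mouse 2, where 68.8% and 65.1% of all coding genes had one. The median distance of a Hox gene from its nearest strict peak was 11464 bp in mouse 1 and 11182 bp in mouse 2, against 0 and 43 bp over all coding genes.

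The 4 Hox promoter peaks were low, or rested on 1 annotated start. Hoxa7 had 2.33 in mouse 1 and 0.970 in mouse 2, and 24.7% and 12.5% of the coding promoters with a peak were lower. This peak is the HoxA site described above. It touched 1 of the 5 GENCODE start sites of Hoxa7, at base 52221854, and lay 1288 and 1268 bp or more from the other 4 in mice 1 and 2 and over 3 kb (3108 and 3088 bp) from the curated RefSeq start. Hoxd13, a gene of limb and genital development, had 0.718 in mouse 1 and none in mouse 2, and Hoxd12 had 0.325 and none. Both belong to the run of low peaks described next. Hoxa3, which patterns the pharyngeal region, had 0.231 in mouse 1 and none in mouse 2, near its upstream starts, which lie between Hoxa6 and Hoxa7. With curated RefSeq starts the count was 3 of 39 in mouse 1 (Hoxa3, Hoxd12 and Hoxd13) and 0 of 39 in mouse 2, a count that leaves shares up to 8.97% within its interval, where 63% and 57.2% of 20923 genes had a peak.

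The mice differed in peak number at the posterior end of HoxD. In mouse 1 a run of 21 strict peaks, each within 1 kb of the next and with centres between 1.95 kb before the start of Hoxd13 and 9.16 kb past it, lay over Hoxd13 and Hoxd12 and towards Hoxd11 (chromosome 2, 74666261 to 74677580, 11.3 kb). Mouse 2 had 0 peaks there in either list. The 21 heights ran from 0.106 to 0.718 with a median of 0.231, or 37 cuts, and all 21 were below the median of that library. Only 2.00% of the library's peaks were lower than that median. The highest 3 were 0.718 at 0.49 kb past the start of Hoxd13, 0.650 at 4.83 kb and 0.487 at 4.59 kb.

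The run held listed bases as well as peaks. In mouse 1, 89.5% of its bases stood at FDR 0.05 or less, the lowest at 2.01e-45, and in mouse 2 not a single base did. Mouse 1 had 27 footprints in it and mouse 2 had 0. The span of the run and the choice to report it were made after the data were seen. Such runs were commoner in mouse 1 across the genome: 167 runs of 8 or more peaks against 18 in mouse 2, and 6 runs of 21 or more against 1. With 1 library per mouse, a difference of the mouse and one of the library cannot be told apart. The strict site 4450 bp before Hoxd13, between it and Evx2, was at 1.01 in mouse 1 and 0.915 in mouse 2.

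Markers of tissues that use posterior HoxD genes were set beside the run, in the strict list. Of 4 hindbrain and spinal cord markers, 2 had a promoter peak in mouse 1, En1 among them, and none had one in mouse 2, with summed heights of 2.09 and 0, and Gbx2 and Lmx1b were at 0 in both. Of 5 skin and limb fibroblast markers, Col1a1 (2.10 and 1.64) and Twist1 (0.856 in mouse 1 alone) had one, with summed heights of 2.95 in mouse 1 and 1.64 in mouse 2, and Col1a2, Col3a1 and Prrx1 had no strict peak in either. In the longer list Prrx1 (0.681) and Col1a2 (0.344) had one in mouse 1 and not in mouse 2. The 5 cortical neuron markers stood between 2.49 and 5.58 in mouse 1 and between 1.26 and 4.53 in mouse 2. The part of other tissue in the run was not tested.

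**Figure D3:**
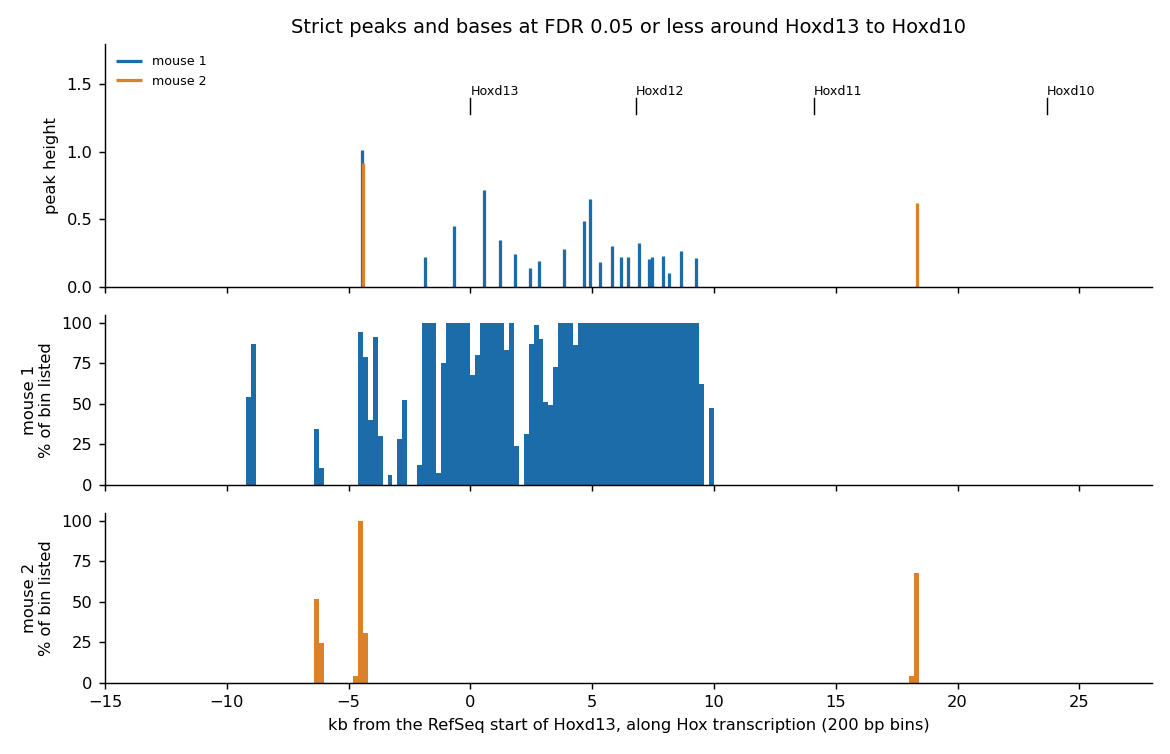
Strict peak heights (cuts per M, top) and the percentage of bases at FDR 0.05 or less in 200 bp bins (mouse 1 in the middle, mouse 2 at the bottom), in kb from the RefSeq start of Hoxd13 along Hox transcription. The 21 low peaks and the nearly filled bins lie in mouse 1 alone, while the peak between Evx2 and Hoxd13 is in both.

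Apart from that run the clusters were dense in genes, and their peak density could not be told from that of the genome at these counts. The clusters held 85.4 coding genes per Mb, against 8.26 per Mb in the genome. They held 54.9 strict peaks per Mb in mouse 1 and 16.3 in mouse 2, against 27.3 and 22.5 per Mb in the genome. Without the run the clusters had 8 peaks in each mouse, 16.6 per Mb (exact Poisson interval 7.16 to 32.7), an interval that includes the genome's density in both mice. HoxB, the longest cluster, had 2 peaks in each mouse (11.5 per Mb) and HoxC 1 in each (8.64). HoxA had 3 in mouse 1 and 2 in mouse 2 (mean 23.7 ± 6.72 per Mb, SD, n = 2), and HoxD without the run had 2 and 3 (28.6 ± 8.08). The flanks held 21 peaks in each mouse, 26.3 per Mb (16.2 to 40.1). Bases at FDR 0.05 or less, which include signal under the peak threshold, numbered 25.4 per kb of cluster in mouse 1 and 5.76 in mouse 2, against 16.9 and 11.2 in the genome. Without the run mouse 1 had 8.64 and mouse 2 had 5.88.

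With the run included, 5 of the 29 strict sites inside the clusters were in both mice (17.2%). Outside the run the clusters had 11 sites, of which 5 were in both mice, 3 in mouse 1 alone and 3 in mouse 2 alone. The share in both, 45.5%, is near the 52.5% of the genome. The highest of the single ones, at 1.57 in mouse 1, lay 1295 bp from an upstream start of Hoxa3 and had a peak of 0.530 in the longer list of mouse 2. A site 1191 bp from a start of Hoxb5 was at 0.557 in mouse 2, and the longer list had it at 0.806 in mouse 1. A site 3582 bp from the start of Hoxa13 was at 0.798 in mouse 2, and one 4108 bp from a start of Hoxd11 was at 0.619 in mouse 2. Neither list of mouse 1 had them. A site between Hoxb13 and Hoxb9 was at 0.562 in mouse 1 alone. Its best matrix match passed the CTCF threshold with 16.5 and read against the strand of Hox transcription. The best matches of the sites near Hoxa13 and Hoxd11 did not pass. That near Hoxa13 read against Hox transcription and that near Hoxd11 along it. Over the windows 19 of 57 sites were in both mice (33.3%), or 19 of 37 without the run (51.4%), against 52.5% of sites in the genome.

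Of the 28 strict sites of the flanks 6 were at coding promoters, 1 of which is part of the run before Hoxd13, 2 were at noncoding starts and 20 elsewhere. The highest lay at the promoter of Lnpk, an endoplasmic reticulum shaping protein next to HoxD, at 6.86 in mouse 1 and 2.96 in mouse 2. The promoter of Mtx2, a mitochondrial import gene on the other side, was at 3.21 and 1.12. Ttll6, beside HoxB, was at 0.768 and 0.427. Evx1 and Evx2, the even-skipped homeobox genes that adjoin HoxA and HoxD, had no strict promoter peak in either mouse, nor did Skap1 and Calcoco2. The longer list had Evx2 at 0.799 and Skap1 at 0.556, both in mouse 1 alone. A site 7318 bp from Evx1 was at 1.51 and 0.688. Beside HoxC the highest flank sites were 1.69 in mouse 1 and 1.88 in mouse 2 at 59.3 kb from Hoxc4, and 0.893 and 2.00 near the start of a noncoding gene, Gm49477. D930007P13Rik, a noncoding gene that reaches into that flank, had 2.11 and 1.11 at its promoter, which lies beyond the flank.

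Footprints in the window peaks numbered 7.84 per kb of peak in mouse 1 (exact Poisson interval 6.17 to 9.83) and 12.5 in mouse 2 (9.59 to 16.0), against 11.8 and 13.9 in the genome. Without the run mouse 1 had 12.2 (9.11 to 15.9). Of the 21 strict peaks of mouse 1 inside HoxD, run included, 7 held a footprint.

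Genes that work with or on Hox genes had promoter peaks in the same libraries. For scale, 63.5% of all coding genes had a strict one in mouse 1 and 58.4% in mouse 2. Among CpG-rich coding genes 95.5% and 89.3% did. Of 9 TALE homeobox genes, whose Pbx, Meis and Pknox proteins bind DNA together with Hox proteins, 9 had a strict promoter peak in mouse 1 and 8 in mouse 2. Pknox1 was at 8.41 in mouse 1 and 8.94 in mouse 2, and Pbx4 at 5.45 and 5.61. Pbx2 (2.09 and 1.08) and Meis3 (2.15 and no strict peak, 0.770 in the longer list) were the lowest.

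Of 23 Polycomb genes 23 had a promoter peak in mouse 1 and 22 in mouse 2 (100% and 95.7%). These shares are near those of CpG-rich coding genes (95.5% and 89.3%). Cbx8, a reader of the Polycomb mark, stood at 11.6 in mouse 1 and 8.78 in mouse 2, Jarid2, a partner of the methylating complex, at 9.23 and 8.16, and Cbx6 at 9.57 and 5.79. The lowest were Phc1 (3.50 and 1.21) and Bmi1, at 2.60 in mouse 1 and without a strict peak in mouse 2, where the longer list had it at 1.04. Of 9 Trithorax and demethylase genes, which oppose Polycomb, 8 had one in each mouse. Kmt2a, the methyltransferase that keeps Hox genes on, was at 11.2 and 4.75, Kdm6a, an eraser of the Polycomb mark, at 7.14 and 7.12, and Men1 at 7.03 and 6.74. Kdm6b, the other eraser, had no strict peak in either mouse and was at 1.10 and 0.915 in the longer list.

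Homeobox genes related to the Hox genes by descent also had few promoter peaks. Of 8 ParaHox and even-skipped genes 2 had a strict peak in mouse 1, Gsx1 at 0.843 and Pdx1 at 0.406, and 1 in mouse 2, Gsx1 at 0.543. Cdx1, Cdx2, Cdx4, Evx1, Evx2 and Gsx2 had no strict peak. Of 14 forebrain transcription factors 14 had one in mouse 1 and 13 in mouse 2, with Lhx2 at 5.35 and 1.47. Of all coding genes 63.5% and 58.4% had one. Emx2 was at 1.34 and 1.18, and Otx1 at 1.26 in mouse 1 and none in mouse 2.

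Retinoic acid turns on Hox genes in the embryo. Of 15 genes of its pathway 10 had a strict peak in mouse 1 and 6 in mouse 2 (66.7% and 40%). The shares of all coding genes, 63.5% and 58.4%, lie within the Wilson intervals of both. All 6 nuclear receptors had one in both mice, with Rxrb at 9.78 and 4.84, Rarg at 3.87 and 2.42 and Rxra at 2.57 and 1.84. Of the enzymes and binding proteins, Crabp2 (0.725), Cyp26b1 (0.675), Aldh1a1 (0.618) and Aldh1a2 (0.406) had a strict peak in mouse 1 alone, and Aldh1a3, Crabp1, Cyp26a1 and Cyp26c1 had none. The longer list also had Cyp26b1 (0.461) and Aldh1a2 (0.344) in mouse 2, and Cyp26a1 (0.637), Aldh1a3 (0.537) and Crabp1 (0.468) in mouse 1. Of 10 hindbrain and spinal cord genes 7 and 3 had a strict peak (70% and 30%), and the Wilson intervals include the shares of all coding genes here as well. Egr2 (3.95 and 3.05), a factor of the hindbrain segments that is also used by other cells of the brain, and Pax5 (0.943 and 0.798) had one in both mice. En1 (1.36), En2 (0.931) and Pax2 (0.531) had a strict one in mouse 1 alone, and the longer list had En2 at 0.303 in mouse 2. Mouse 1, which had the HoxD run, also had more promoter peaks at these genes and the larger library by inferred depth. It had more over all coding genes too (63.5% against 58.4%). A link between these values and the run was not tested.

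**Figure D4:**
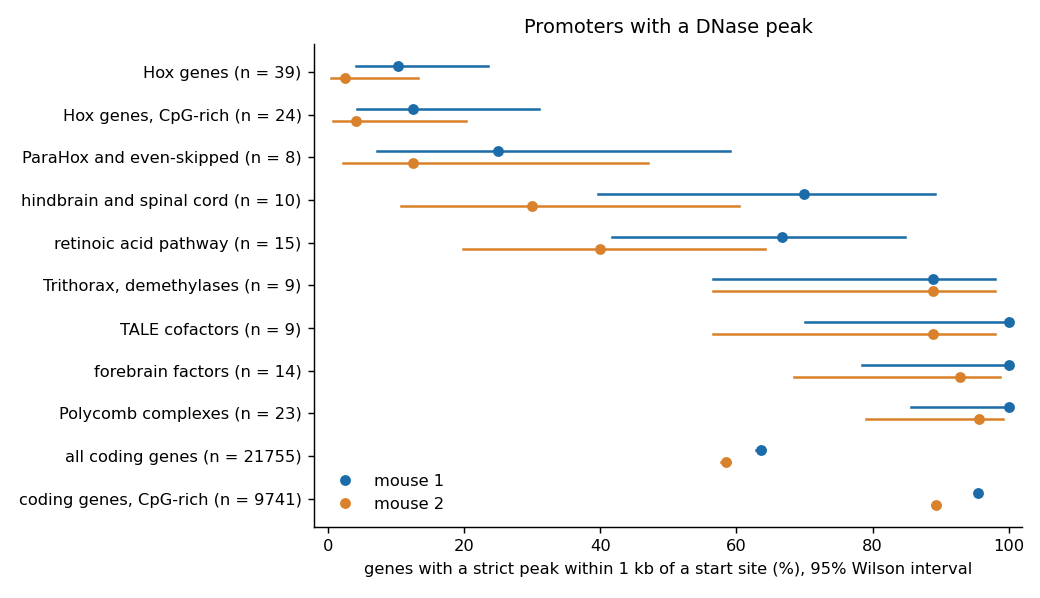
Percentage of genes with a strict peak within 1 kb of a start site in mouse 1 and mouse 2, with 95% Wilson intervals. Hox genes sit at 10.3% and 2.56%, and the gene lists that act on or with them, TALE, Trithorax and Polycomb, between 88.9% and 100%. All coding genes sit at 63.5% and 58.4%, and CpG-rich ones at 95.5% and 89.3%.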

How the data were processed

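Per the deposited file list, each library was processed on its own on mm10 (GRCm38), without pooling. The peaks came from an aligner and a caller not given in the sources used here. Column 7 of the deposited peak lists holds a signal, used here as peak height, whose normalization is not stated. All heights were within 0.02 of a whole multiple of the library's step, read as cuts per M cuts. The deposited FDR list gives q-values of the cut rate and lists only bases at 0.05 or less. The deposited footprint score was 0.01 throughout and was not used, positions were.

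The strict list is the shorter one, and 1 peak of the longer list of mouse 1 held no base at FDR 0.05. A gene's promoter height is its highest peak within 1 kb of any GENCODE M21 start. Overlapping peaks of the mice were merged into sites. RefSeq starts are those of curated mRNAs on GRCm38.p6. Footprints counted if they overlapped a peak by 1 bp. The CTCF matrix began from 2555 matches of a longer letter pattern in sites outside the windows and was rebuilt from 9843 best matches. Of 39 Hox genes 22 had an entry in the RefSeq promoter table, which was not used further. The procedures were tested on simulated data. Python 3.11.15, NumPy 2.4.6, pandas 2.3.3, SciPy 1.17.1 and matplotlib 3.10.9 were used.

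The members, gene lists and settings were chosen with earlier results of these data known. The genes and sites named are the Hox genes with a promoter peak in either list, sites inside the clusters, the highest sites of each window, other window genes with a promoter peak in both mice, and the 3 highest and 2 lowest genes of each list. Others were chosen on their values. Some genes that this rule names are not reported here. Recomputation used the longer list, peaks at or over the median height, other windows, starts, overlaps, flanks, patterns and thresholds, and leaving out each mouse.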

Additional observations from a re-analysis of the deposited data

How the results depend on the processing

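Of 44 recomputed values for the 7 measures, 34 stayed within the spread between the mice or the counting interval and 10 moved. The 34 do not measure stability. Values with a mouse left out could not count as moved, because each mouse lies within the SD around the mean of both. Cluster density fell from 35.6 to 16.6 peaks per Mb without the HoxD run and still counted as within the spread (SD 27.3). With the longer list Hox promoters with a peak came to 12.8%, and flank density to 51.9 peaks per Mb. Flank density was 25.1 without the HoxD run, 5.63 for peaks at or over the median height, 17.5 with 50 kb flanks and 30.9 with 200 kb flanks. Its main value was the same in both mice, so any change counted as a move. Sites in both mice came to 50% for these higher peaks and 51.4% without the run, footprints to 14.7 per kb of peak for the higher peaks, and the longer CTCF pattern was in 1.75% of window sites. Leaving out a mouse, Hox promoters with a peak ranged from 2.56% to 10.3%, cluster density from 16.3 to 54.9 peaks per Mb, footprints from 7.84 to 12.5 per kb of peak and bases at FDR 0.05 or less from 5.76 to 25.4 per kb, and flank density was 26.3 in each. The run near Hoxd13, in mouse 1 alone, decides the upper end of cluster density and of listed bases. Depth limits what a missing peak shows: a site under the threshold of the lists has no value here. No paired analysis was possible because there is 1 group.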
